A study of Mus musculus with 36 samples.

Results

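The 36 genes described here are markers of dividing cells, measured in epididymal white adipose tissue (eWAT), a visceral fat depot. They were chosen as a list of cell proliferation genes, each gene was found by its Ensembl ID, and all 36 were among the 24750 genes of the deposited table. RNA was sequenced from the eWAT of 36 male mice, in 12 groups of 3: mice were WT or CCL19-KI, ate a normal diet (ND), a 40% high-fat diet (HFD) or a 60% HFD, and had a ligature or none. CCL19-KI mice are a homozygous line in which *Ccl19*, which encodes a chemokine, was inserted at the *Adipoq* locus and is thus driven by an adipocyte promoter, with *Adipoq* itself left intact. The WT mice (C57BL/6) were bred separately from that line. The ligature, a silk thread round the upper molars that induces periodontitis, was in place for 2 weeks, and the labels give 10 weeks of feeding, whereas the design text gives mice of 14 weeks and 8 weeks of feeding and speaks of ligatures without naming unligatured mice. The grouping follows the labels. Each library is 1 mouse per its label, lymph nodes had been removed from the fat, and values are normalized CPM (read counts scaled to a common library size) as deposited.

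Cells that enter the cell cycle switch on E2F transcription factors, load the MCM helicase onto DNA (licensing), copy the DNA, and then condense and separate the chromosomes with a spindle built by kinases, cyclins and motor proteins. Genes of the S phase are typical targets of E2F factors, and genes of mitosis are typically controlled through CCAAT boxes and the cell cycle homology region (CHR) of their promoters. In the fat of obese mice, macrophages, preadipocytes and other cells of the stroma are known to divide, whereas mature adipocytes rarely do. The 36 genes were grouped by role: 9 genes of licensing (*E2f1*, *Mcm2* to *Mcm7*, *Cdc6*, *Cdt1*), 4 of DNA synthesis (*Pcna*, *Rrm2*, *Tyms*, *Tk1*), 6 of entry into mitosis (*Ccna2*, *Ccnb1*, *Ccnb2*, *Cdk1*, *Aurka*, *Plk1*), 11 of the spindle and the chromosomes (*Top2a*, *Bub1*, *Bub1b*, *Aurkb*, *Birc5*, *Cenpe*, *Cenpf*, *Kif11*, *Nusap1*, *Tpx2*, *Ttk*), 5 of mitotic exit (*Cdc20*, *Kif20a*, *Kif23*, *Prc1*, *Ube2c*) and *Mki67*, the general marker of dividing cells. Because the tissue was measured as a whole, more dividing cells and more of this RNA per cell cannot be told apart.

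Promoter sequences of RefSeq (GRCm38.p6, the 250 bases before each start) were found for 31 of the 36 genes. An E2F-type sequence (TTTCCCGC, TTTCGCGC, TTTGGCGC or TTTGCCGC on either strand) was in the promoters of 5 of them (16.1%), *Mcm5*, *Mcm6*, *Mcm7*, *Cdc6* and *Cdk1*, and in 2.16% of all 27025 promoters. The windows of *Mcm7* and *Cdc6* begin inside the annotated gene. A CCAAT box on either strand was in 24 (77.4%) against 37.5% of all, and a CHR-type sequence (TTTGAA or TTCGAA on either strand) in 11 (35.5%) against 19.6% of all. Such a match is a description of the letters and not a site of binding. The 5 stretches below belong to genes of licensing, mitotic entry and mitotic exit that were higher on the 60% HFD, and they run 5′ to 3′ along the gene's strand with the matches in capitals. Bases that lie inside the annotated gene were left off, so that *Cdk1* is shown over 224, *Ccnb1* over 166 and *Ube2c* over 219 bases. The whole windows hold 1 further match each: a CHR-type match in *Cdk1* and *Ube2c* and a CCAAT box in *Ccnb1*. *Mcm5* (chr8:75109259-75109508, plus strand) holds 2 E2F-type matches that overlap each other and 2 CCAAT boxes. *Cdk1* (chr10:69352939-69353162, minus strand) holds an E2F-type match, a CHR-type match and 3 CCAAT boxes. *Ccnb1* (chr13:100786571-100786736, minus strand) holds 1 CCAAT box and *Aurka* (chr2:172370571-172370820, minus strand) holds 2. *Ube2c* (chr2:164769679-164769897, plus strand) holds 6 CCAAT boxes, of which 2 overlap.
Mcm5: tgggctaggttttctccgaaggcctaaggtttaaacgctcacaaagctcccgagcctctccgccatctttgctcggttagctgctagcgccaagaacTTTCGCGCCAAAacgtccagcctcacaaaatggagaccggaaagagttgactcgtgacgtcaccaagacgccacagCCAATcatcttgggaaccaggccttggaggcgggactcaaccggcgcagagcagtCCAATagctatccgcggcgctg
Cdk1: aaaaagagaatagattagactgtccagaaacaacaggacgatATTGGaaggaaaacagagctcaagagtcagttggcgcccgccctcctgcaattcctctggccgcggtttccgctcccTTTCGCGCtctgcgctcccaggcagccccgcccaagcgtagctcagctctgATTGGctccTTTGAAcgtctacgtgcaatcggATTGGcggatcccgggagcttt
Ccnb1: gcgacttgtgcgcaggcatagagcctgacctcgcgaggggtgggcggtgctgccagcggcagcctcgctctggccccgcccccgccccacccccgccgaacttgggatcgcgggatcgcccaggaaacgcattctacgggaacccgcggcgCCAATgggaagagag
Aurka: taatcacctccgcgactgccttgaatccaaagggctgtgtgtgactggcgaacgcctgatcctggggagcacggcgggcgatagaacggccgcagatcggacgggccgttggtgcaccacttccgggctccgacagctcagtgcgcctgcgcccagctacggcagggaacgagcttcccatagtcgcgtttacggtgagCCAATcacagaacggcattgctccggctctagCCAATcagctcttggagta
Ube2c: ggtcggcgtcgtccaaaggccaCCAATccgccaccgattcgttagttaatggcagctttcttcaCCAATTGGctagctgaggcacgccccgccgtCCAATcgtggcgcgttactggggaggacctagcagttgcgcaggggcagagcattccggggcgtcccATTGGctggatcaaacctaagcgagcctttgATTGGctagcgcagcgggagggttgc

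The libraries held 11962228 to 21581595 reads each, so that 1 read was worth 0.0472 to 0.0834 normalized CPM. None of the 36 genes was at 0 in any library, but several were low: *Ttk* reached 1 normalized CPM in 7 libraries, and *Ccnb2* rested on 1 read in 1 of them. *Ccl19* went against the genotype label in 2 libraries. In the library labelled WT, fed an ND without ligature, replicate 2, it was at 19.2 normalized CPM, against 0.507 to 4.5 in the other WT libraries. In the library labelled CCL19-KI, fed a 60% HFD without ligature, replicate 3, it was at 0.687, against 5.6 to 34.6 in the other CCL19-KI libraries. *Adipoq* had a median of 2323 normalized CPM in WT and 616 in CCL19-KI libraries. Both libraries also held the RNA of epididymis epithelium (summed markers 5877 and 9573 normalized CPM, against medians of 18.2 in ND and 1.52 in 60% HFD libraries), as did others, with 5774 in replicate 2 of the unligatured CCL19-KI mice on the 60% HFD, 2221 and 942 in replicates 1 and 2 of the ligatured CCL19-KI mice on the ND and 1530 in replicate 2 of the unligatured WT mice on the 40% HFD. A further property bears on these genes, since germ cells of the testis divide: the summed level of 22 germ cell markers, with a median of 16.9 over all libraries and at most 115 in 33 of them, was 1819 in replicate 1 and 248 in replicate 3 of the unligatured mice labelled CCL19-KI on the 60% HFD, and 256 in replicate 3 of the unligatured mice labelled WT on the ND. Results that rest on these 4 libraries are given with and without them. No library was moved to another group.

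Each mouse was given a score, the mean of log2(normalized CPM + 1) over the 36 genes. The score ran from 1.74 in replicate 2 of the unligatured CCL19-KI mice on the ND to 3.56 in replicate 1 of the unligatured CCL19-KI mice on the 60% HFD, the library with the most germ cell RNA, which was the highest of all 36 for 17 of the 36 genes. Averaged over 12 mice, it was 2.25 ± 0.41 (SD) on the ND, 2.42 ± 0.31 on the 40% HFD and 2.60 ± 0.38 on the 60% HFD. By group (mean ± SD, n = 3), it was lowest in ligatured WT mice (1.99 ± 0.21) and unligatured CCL19-KI mice (2.00 ± 0.24) fed an ND and highest in unligatured CCL19-KI mice fed a 60% HFD (2.97 ± 0.54). The unligatured WT mice fed an ND (2.73 ± 0.47) stood above every group of HFD-fed mice but the unligatured CCL19-KI mice on the 60% HFD, so that the means of the groups did not follow the diet in every arm. Ranges of some groups overlapped and those of others did not. On the ND, unligatured WT mice (2.26 to 3.20) lay above ligatured WT mice (1.77 to 2.17) and unligatured CCL19-KI mice (1.74 to 2.22). The score was not tested.

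**Figure D1:**
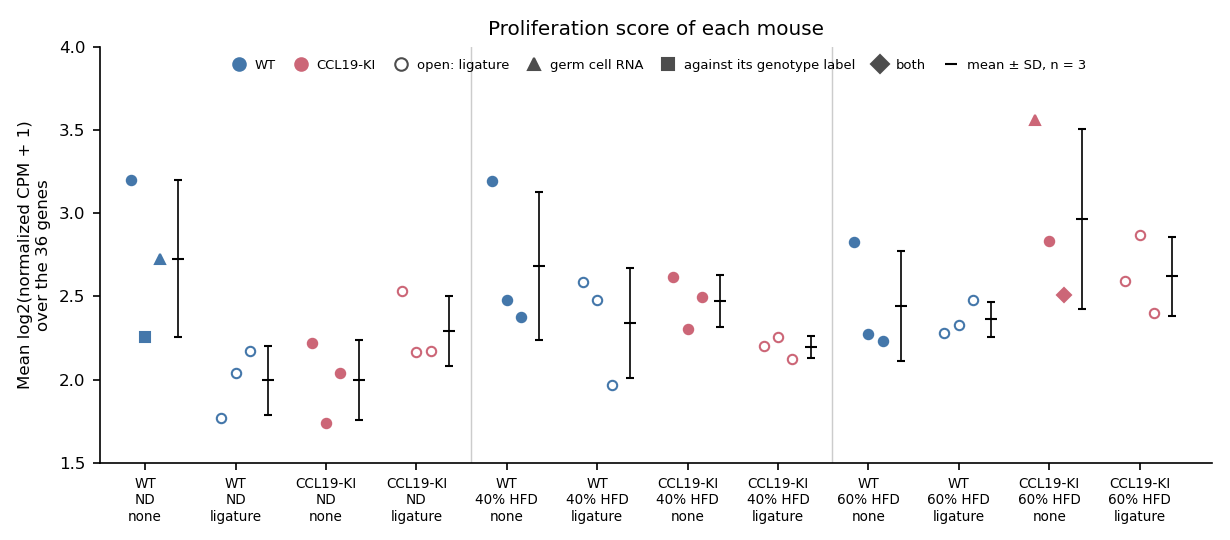
Mean of log2(normalized CPM + 1) over the 36 proliferation genes in each mouse (points) with group mean ± SD (n = 3), by diet, genotype and ligature. Triangles mark libraries with germ cell RNA, squares those that go against their genotype label and diamonds those with both; the highest point, 3.56, is a library with germ cell RNA.

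The genes did not all vary together. Over the 36 libraries, the level of *Tpx2*, a factor of spindle assembly, followed the mean of the other 35 genes with r = 0.97, and *Top2a* (a topoisomerase of mitotic chromosomes) and *Ccna2* (cyclin A2) with r = 0.93. At the other end, *Mcm7*, a subunit of the helicase, had r = 0.03, *Tk1*, thymidine kinase, 0.16, *Cdc6*, a loader of the helicase, 0.25, and *E2f1* 0.38. Most of the 36 genes are mitotic, so the mean of the others leans towards them. The r of the mitotic genes went down to 0.74 for *Ube2c*, and the licensing genes *Mcm5* (0.78) and *Mcm6* (0.75) lay above that. Several other genes of licensing and nucleotide synthesis followed the mean less closely. These values share their libraries and are a description only. Each gene was also set against the mean log2 level of lists of cell markers. The median r of the 36 genes was 0.42 for T cells, 0.35 for macrophages, 0.33 for lipid-associated macrophages and 0.41 for germ cells. The last was 0.11 without the 3 libraries with germ cell RNA.

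**Figure D2:**
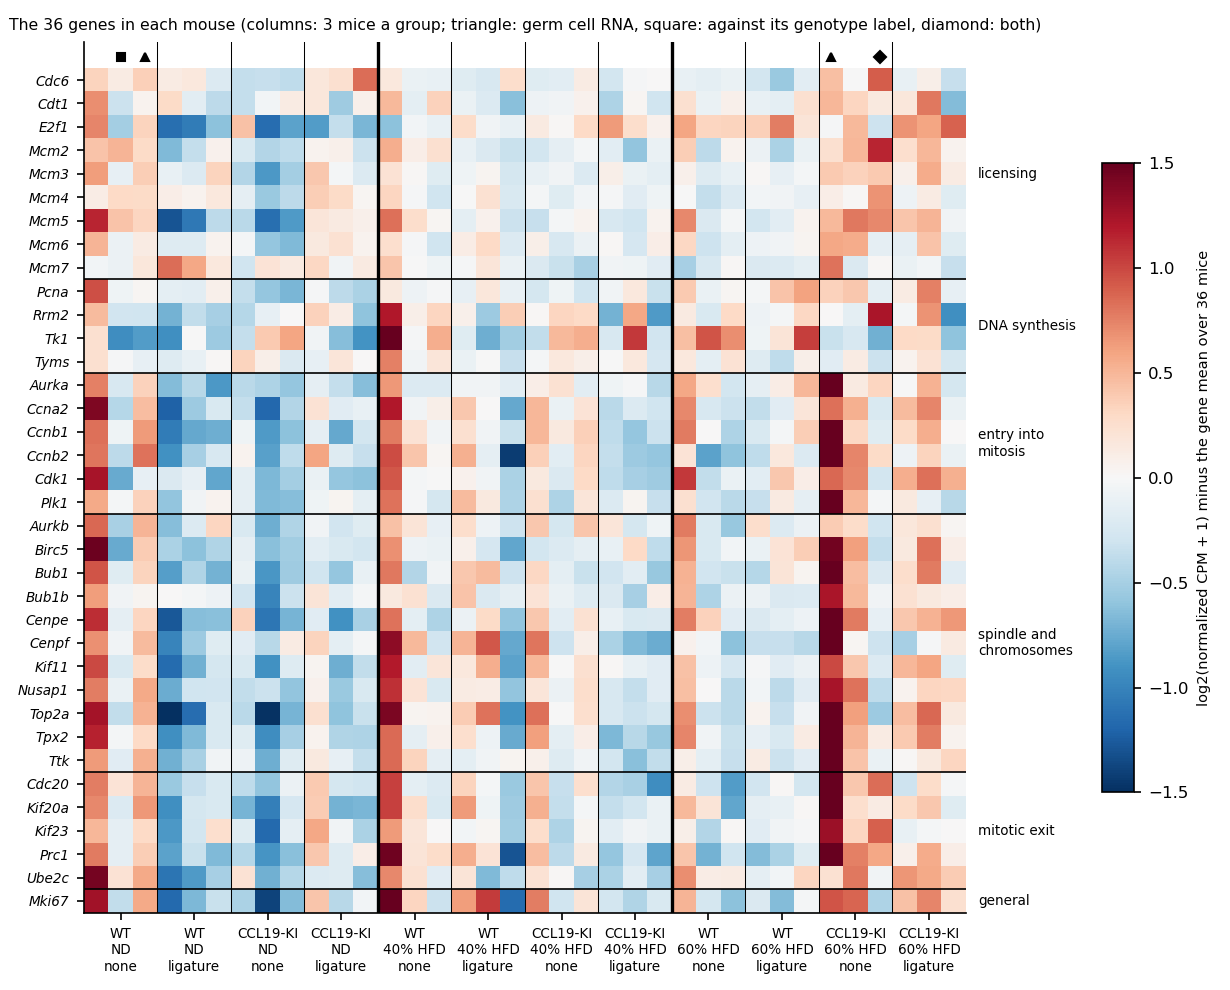
Each of the 36 genes (rows, by role) in each of the 36 mice (columns, by group), coloured by its log2(normalized CPM + 1) relative to the gene's mean over all mice. Marks over the columns are as in the plot of the score; the column of replicate 1 of the unligatured CCL19-KI mice on the 60% HFD holds the highest value of 17 genes.

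Genes were tested with limma on log2(normalized CPM + 1) in 1 fit of all 12 groups, with p-values adjusted over all 17852 genes tested, and a gene is called higher or lower where the adjusted p was below 0.05. Fold changes are on that scale, which understates changes of low genes. Effects of a diet, the ligature or the genotype were averaged over the groups of the other factors. Counts at an unadjusted p below 0.05 alone are given without the share of all genes at that threshold and are a description only. The same holds for counts from fits that left out 1 library, which are given without the share of all genes called in that fit. Whether such a count moved with the calls over all genes therefore cannot be told from it.

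Of the 36 genes, 9 were higher on the 60% HFD than on the ND and 0 were lower (1 lower at an unadjusted p below 0.05), and over all genes tested 10.2% were higher and 8.4% lower. The change was positive for 32 of the 36 genes, with a median of 0.35 on the log2 scale, against 0.01 over all genes tested. By the study's own thresholds (a ratio of 1.5 or more with an unadjusted p up to 0.05), 7 genes were higher, against 6.83% of all genes.

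*E2f1*, the transcription factor that switches on S phase genes (chr2:154559407-154569892, minus strand), changed most. Its level was 2.59 to 12.2 normalized CPM with a median of 4.05 on the ND, 4.21 to 11.4 with a median of 7.17 on the 40% HFD, and 5.40 to 13.7 with a median of 9.68 on the 60% HFD. All 12 mice of the 60% HFD and all 12 of the 40% HFD lay above the median of the ND mice, though the ranges overlapped, and 3 unligatured ND mice (12.2, 9.81 and 9.00) were high. On the 60% HFD it was higher by 0.88 ± 0.15 (log2 ± SE, limma, adjusted p = 7.27e-04), a 1.84-fold change, and it passed the test in each of the 18 settings tried and whichever of the 36 libraries was left out. Without the 4 libraries that go against their label or hold germ cell RNA, the change was 0.85 (adjusted p = 0.00508).

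Among the other licensing genes, *Mcm5*, a subunit of the replicative helicase (chr8:75109569-75128439, plus strand), was the only one to pass. Its level was 1.72 to 13.7 normalized CPM (median 5.08) on the ND and 4.54 to 10.6 (median 6.91) on the 60% HFD. The highest value of all was on the ND, so that the diets differed in their low values more than in their high ones. It was higher by 0.49 ± 0.13 (adjusted p = 0.0128). *Mcm7* had the opposite sign, with medians of 23.3 on the ND and 18.4 on the 60% HFD and a change of -0.27 ± 0.10 that missed the threshold (adjusted p = 0.0614). Of the 12 mice on the 60% HFD, 1 lay above the ND median of *Mcm7*. *Mcm7* was lower (-0.35, adjusted p = 0.0178) without the 3 libraries with germ cell RNA, against 7.51% of all genes lower. The median change of the 9 licensing genes was 0.16. Of the 4 genes of DNA synthesis, *Pcna*, the clamp that holds the polymerase on DNA, was higher by 0.38 ± 0.12 (adjusted p = 0.0271), with levels of 27.5 to 89.0 (median 40.2) on the ND and 40.5 to 76.5 (median 53.3) on the 60% HFD.

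Of the 6 genes of entry into mitosis, 3 were higher. *Cdk1*, the kinase that drives cells into mitosis, ranged from 1.62 to 9.62 normalized CPM (median 2.54) on the ND and from 2.50 to 8.45 (median 5.25) on the 60% HFD, a change of 0.63 ± 0.19 (adjusted p = 0.0258). *Ccnb1*, its partner cyclin B1, ranged from 0.483 to 4.46 (median 1.27) and from 1.23 to 10.5 (median 2.42), a change of 0.60 ± 0.19 (adjusted p = 0.0269). *Aurka*, a kinase of the spindle poles, ranged from 0.696 to 4.19 (median 1.32) and from 1.54 to 13.7 (median 2.52), a change of 0.64 ± 0.18 (adjusted p = 0.0186). The 60% HFD mice lay above the ND median in 11 of 12 for *Cdk1* and *Ccnb1* and in 12 of 12 for *Aurka*, and the highest *Ccnb1* and *Aurka* values belonged to the library with the most germ cell RNA.

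All 11 genes of the spindle and the chromosomes had a positive change, with a median of 0.45, and 2 were higher. *Cenpe*, a motor at the kinetochore, was at 0.827 to 8.48 normalized CPM (median 2.00) on the ND and at 2.79 to 13.5 (median 4.70) on the 60% HFD, a change of 0.72 ± 0.20 (adjusted p = 0.0143). *Tpx2* was at 1.08 to 7.88 (median 2.15) and at 2.15 to 12.6 (median 3.34), a change of 0.55 ± 0.19 (adjusted p = 0.0404). *Top2a* (0.67 ± 0.26, adjusted p = 0.068) and *Birc5*, which encodes survivin (0.50 ± 0.20, adjusted p = 0.077), missed the threshold. Of the 5 genes of mitotic exit, *Ube2c*, which with the anaphase-promoting complex marks cyclins for destruction, was higher by 0.49 ± 0.15 (adjusted p = 0.0281), from a median of 1.55 (0.483 to 7.61) on the ND to 2.85 (1.88 to 4.47) on the 60% HFD. *Ccna2* (0.39, adjusted p = 0.174), *Rrm2*, a subunit of ribonucleotide reductase (0.30, adjusted p = 0.293), and *Mki67* (0.40 ± 0.25, adjusted p = 0.26) did not pass. The medians of *Mki67* were 12.5 on the ND and 18.2 on the 60% HFD, and its highest values were 41.3 and 33.1, so that the diets overlapped over most of their ranges.

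**Figure D3:**
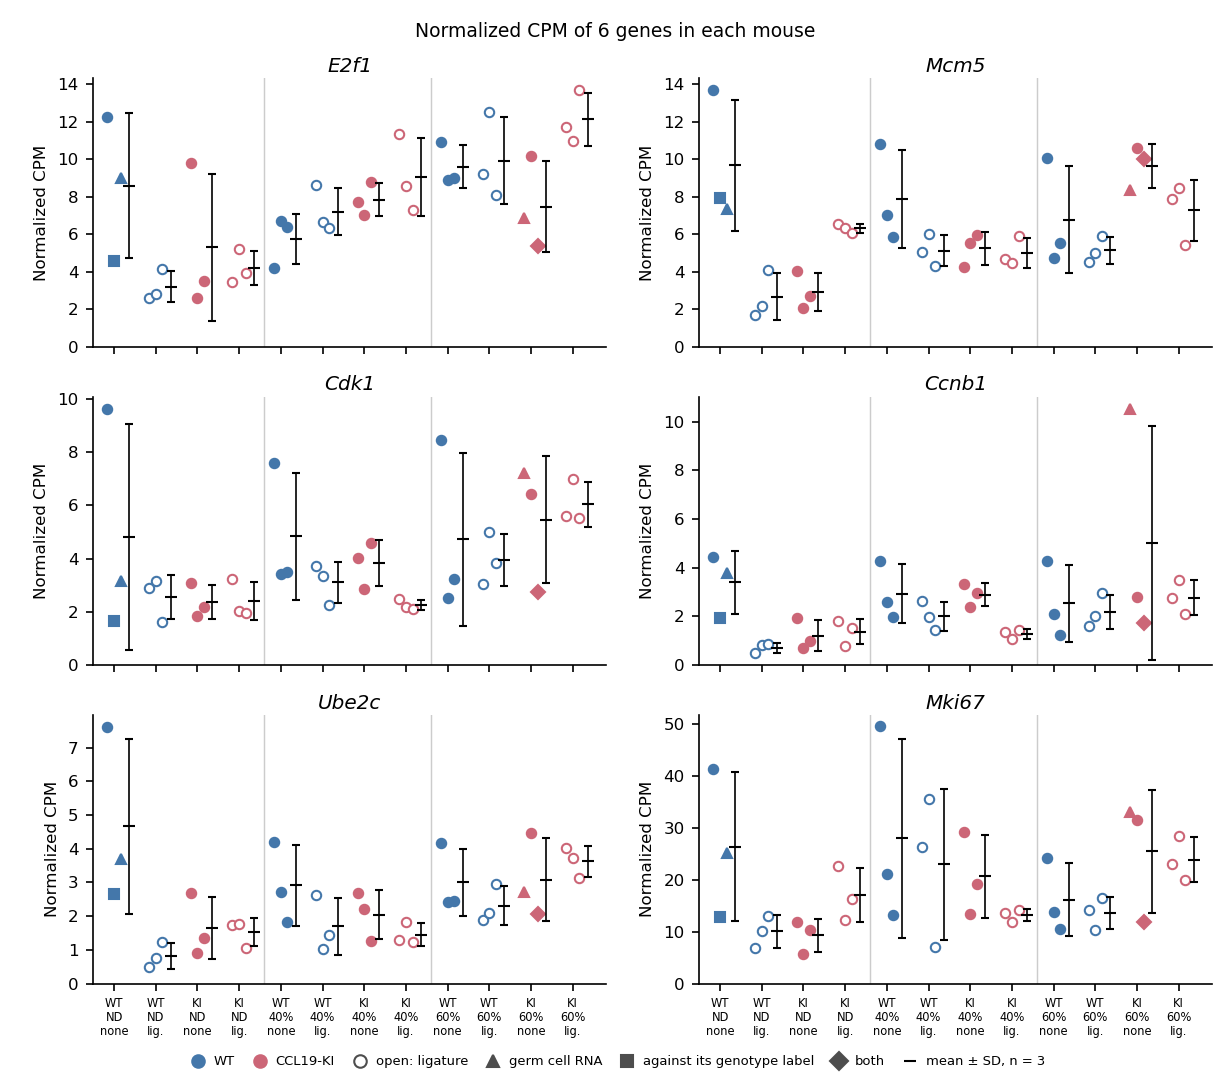
Normalized CPM of *E2f1*, *Mcm5*, *Cdk1*, *Ccnb1*, *Ube2c* and *Mki67* in each mouse (points) with group mean ± SD (n = 3), by diet, genotype and ligature; marks as in the plot of the score. *E2f1* sat between 2.62 and 5.22 in the 6 ligatured mice on the ND and between 8.08 and 13.7 in the 6 on the 60% HFD.

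The count of 9 depended on few libraries. Leaving out 1 library at a time gave 4 to 14 genes, with 4 without replicate 1 of the unligatured WT mice on the 60% HFD or without the library labelled WT on the ND that goes against its label, and 14 without replicate 3 of the unligatured mice labelled CCL19-KI on the 60% HFD. Without both libraries that go against their label, 12 genes were higher, against 8.15% of all genes. Without these and the 2 other libraries with germ cell RNA, *E2f1* was higher and *Mcm7* lower (-0.36, adjusted p = 0.036), against 4.63% higher and 3.8% lower of all genes. Markers of other cells differed between these diets as well. Of 9 markers of lipid-associated macrophages, 7 were higher on the 60% HFD with a median change of 1.65, and their summed level was 1925 to 10121 (median 4689) on the ND and 4036 to 12084 (median 6088) on the 60% HFD. Of 6 hepatocyte markers, 5 were higher, with sums of 129 to 24232 (median 3454) and 801 to 35773 (median 12547), and with the hepatocyte score (the mean log2 level of those markers) as a covariate 3 of the 36 genes were higher and 1 was lower, against 7.01% and 4.56% of all genes. Of the 17 germ cell markers tested, 1 was higher, with sums of the whole list of 4.5 to 256 and 14.1 to 1819. T cell markers were at 3.37 to 16.6 and 6.91 to 14.7, with 0 of 7 tested passing in limma. No marker of these lists was at 0 in every library of a diet, and the part of these cells in the result was not tested beyond these settings.

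**Figure D4:**
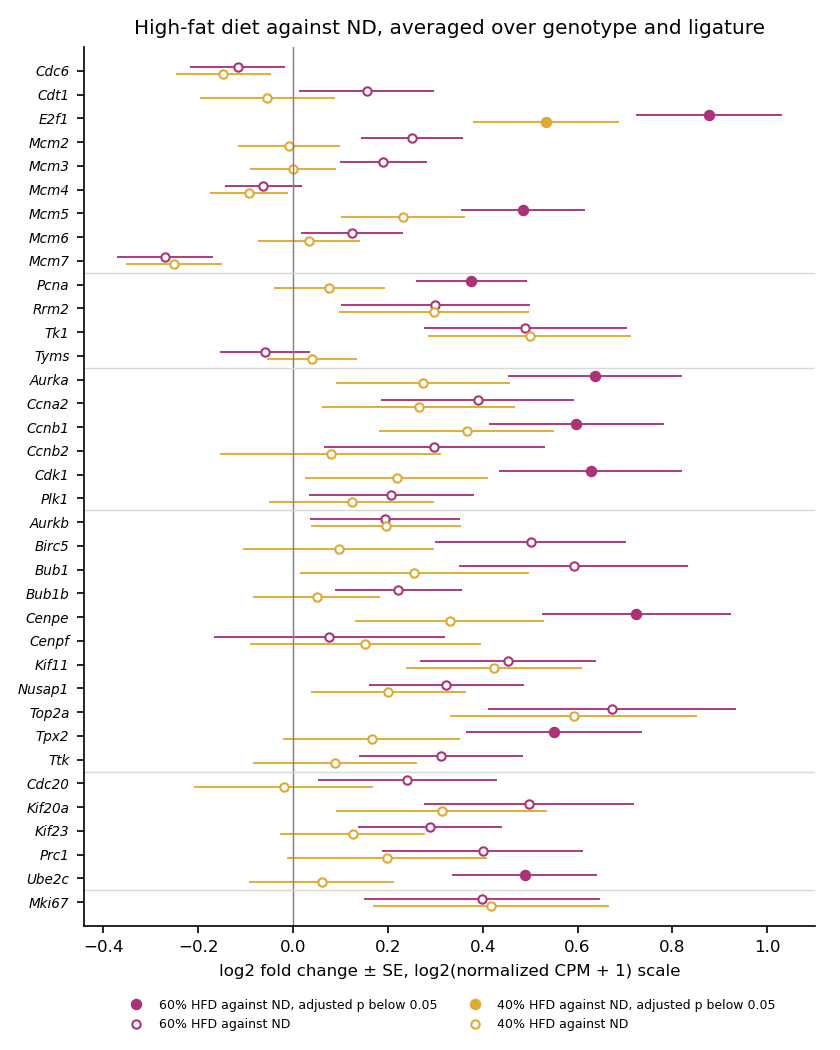
Change of each of the 36 genes on the 60% HFD and on the 40% HFD against the ND (log2 ± SE of the limma fit, 12 mice per diet), ordered by role; filled points have an adjusted p below 0.05. On the 60% HFD 9 genes are filled, and *Mcm7*, *Cdc6*, *Mcm4* and *Tyms* lie below 0.

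On the 40% HFD the same ND mice served as controls. *E2f1* was higher there (0.53 ± 0.15, adjusted p = 0.0313) and the other 35 genes did not pass, while 5.36% of all genes were higher. The change was positive for 29 genes, with a median of 0.16 against -0.02 over all genes tested. *E2f1* lost the call without the 2 libraries that go against their label (0.45, adjusted p = 0.0544) and without all 4 named above (0.40, adjusted p = 0.132). *Tk1* (0.50 ± 0.21, adjusted p = 0.133) and *Mcm7* (-0.25 ± 0.10, adjusted p = 0.111) came next. Between the 60% and the 40% HFD, limma called 0 of the 36 genes, as did edgeR and DESeq2, with 7 higher at an unadjusted p below 0.05 and 0.745% of all genes called. The smallest p-values were those of *Ube2c* (0.43, adjusted p = 0.197), *Pcna* (0.30, adjusted p = 0.244) and *Mcm2* (0.26, adjusted p = 0.276). In unligatured CCL19-KI mice, limma called 0 of 36 on the 40% HFD against the ND and 0 of all genes, with 8 of the 36 higher at an unadjusted p below 0.05, and the groups did not overlap for 15 genes that lay above, against 5.47% of all genes. Thus the levels of several genes on the 40% HFD lay between those of the other diets, as for *E2f1* and *Cdk1* (medians 7.17 and 3.38), without a difference from the 60% HFD that passed.

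With the ligature, no gene of the list passed in limma or edgeR (0 of 36; 0.325% of all genes called in limma), whereas DESeq2 called 6 lower, against 2.54% of all genes: *Ccnb1*, *Cdc20*, *Cenpe*, *Tpx2*, *Ube2c* and *Mcm2*. At an unadjusted p below 0.05, limma had 14 lower and 0 higher, without a share of all genes to set beside them. By the study's thresholds 0 of the 36 genes passed, against 73 higher and 155 lower of all 17852 genes tested. The change was negative for 31 genes, with a median of -0.29 against -0.02 over all genes tested. By role, the median was -0.41 for mitotic exit, -0.33 for the spindle and chromosomes, -0.31 for entry into mitosis, -0.23 for DNA synthesis and -0.01 for licensing. *Ube2c* was at 0.918 to 7.61 normalized CPM (median 2.67) in the 18 unligatured mice and at 0.483 to 4.02 (median 1.76) in the 18 ligatured mice, a change of -0.41 ± 0.12 (adjusted p = 0.12). *Ccnb1* was at 0.702 to 10.5 (median 2.49) and at 0.483 to 3.5 (median 1.58), a change of -0.47 ± 0.15 (adjusted p = 0.14). Both genes overlapped widely between the arms. *Mcm2*, another helicase subunit, was at 5.29 to 17.8 (median 8.63) and at 4.41 to 11.1 (median 6.91), a change of -0.28 (adjusted p = 0.128). All 4 libraries named above are unligatured. Without them, the change of *Ube2c* was -0.60. That fit left replicate 1 as the only unligatured WT mouse on the ND. This mouse held the highest *Ube2c* level of all libraries (7.61 normalized CPM), so that no call is drawn from that fit. The summed level of the erythroid markers also differed, with medians of 798 without and 305 with the ligature, and 0 of its 4 genes passed in limma, with 3 lower at an unadjusted p below 0.05.

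Between CCL19-KI and WT mice, averaged over diets and ligature, none of the 36 genes passed. Limma, edgeR and DESeq2 called 0 of 36, 0.459% of all genes were called in limma, and the only gene at an unadjusted p below 0.05 was *Pcna* (-0.22, adjusted p = 0.234), followed by *Mcm7* (-0.08, adjusted p = 0.639) and *Ccnb2* (0.18, adjusted p = 0.655). The change was positive for 18 genes and negative for 18. In the ligatured mice, which carry the study's comparison of genotypes, 1 of the 36 genes passed on 1 diet. On the ND, *Mcm5* was higher in CCL19-KI mice (6.56, 6.32 and 6.07 normalized CPM) than in WT mice (1.72, 2.18 and 4.10), with no overlap. The CCL19-KI mice lay wholly above in this way for 6 of the 36 genes and 9.32% of all genes. The change of *Mcm5* was 1.05 ± 0.26 (adjusted p = 0.0452), with 0.913% of all genes higher. Its call held in 14 of the 36 fits that left out 1 library. On the 40% HFD, limma, edgeR and DESeq2 called 0 of 36 and limma had 0 at an unadjusted p below 0.05 (0.0112% of all genes called), and 29 changes were negative with a median of -0.11. On the 60% HFD, all of these tools again called 0 (0.0112%), with *Mcm2* alone at an unadjusted p below 0.05 (0.49), and 31 changes were positive with a median of 0.24. Every CCL19-KI mouse lay above every WT mouse for 10 genes there, against 7.17% of all genes.

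Over 17 further comparisons between groups of 3 mice, 22 of the 36 genes passed in at least 1, against 43.3% of all genes. More genes passed among the unligatured mice, in which all 4 libraries named above lie. On the ND, 7 genes were lower in CCL19-KI than in WT mice, against 9.63% of all genes lower: the licensing genes *Mcm5*, *Mcm3*, *Mcm4*, *Mcm2* and *Cdc6*, and *Pcna* and *Ube2c*. *Mcm5* was at 13.7, 7.96 and 7.35 normalized CPM in WT and 4.06, 2.05 and 2.71 in CCL19-KI mice, a change of -1.42 ± 0.26 (adjusted p = 0.00289). *Mcm3*, another helicase subunit, was at 15.1, 8.52 and 12.4 and at 6.65, 4.70 and 6.31, a change of -0.89 ± 0.18 (adjusted p = 0.00459). *Pcna* was at 89.0, 42.8 and 45.7 and at 34.8, 29.6 and 27.5, a change of -0.85 ± 0.23 (adjusted p = 0.017). In each of these genes every WT mouse lay above every CCL19-KI mouse, as it did for 18 of the 36 genes and 14.7% of all genes tested. The median change was -0.78 against -0.10 over all genes tested, and 33 were negative.

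That comparison held the library labelled WT that goes against its label. Without both libraries of that kind, 21 genes were lower, against 12.2% of all genes, among them *Mki67* (-1.74, adjusted p = 0.0205) and *Top2a* (-1.75, adjusted p = 0.0209), and without all 4 libraries 19 were lower, against 7.66%, with replicate 1 as the only WT mouse left in the group. The count was 1 without replicate 2 of the CCL19-KI mice, 2 without their replicate 3 and 3 without replicate 1 of the WT mice, the library with the highest score of this diet. It was 16 without replicate 1 of the CCL19-KI mice, 18 without the library labelled WT that goes against its label, and 14 and 13 without replicates 1 and 3 of the unligatured mice labelled CCL19-KI on the 60% HFD. The summed hepatocyte markers were at 129 to 1540 in the WT and 1022 to 24232 in the CCL19-KI mice of this comparison. With the hepatocyte score as a covariate, limma called 0 of the 36 genes at the adjusted p, with 0.319% of all genes lower, against 7 of the 36 without it. By the study's thresholds 11 were lower with the covariate. The share of all genes at those thresholds is not given here, so the 11 were not set against the other genes. The summed markers of lipid-associated macrophages were at 4790 to 10121 in WT and 1925 to 6333 in CCL19-KI mice.

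In unligatured CCL19-KI mice, 20 of the 36 genes were higher on the 60% HFD than on the ND, against 7.19% of all genes, and 34 changes were positive with a median of 0.99 (0.07 over all genes tested). *Mcm5* was at 8.35, 10.6 and 10.0 normalized CPM on the 60% HFD, above the 4.06, 2.05 and 2.71 of the ND (1.46 ± 0.26, adjusted p = 0.00327). *Prc1*, which bundles the microtubules of the central spindle, was at 21.1, 6.85 and 5.94 against 2.45, 1.51 and 2.00 (1.84 ± 0.42, adjusted p = 0.0125). *Cdc20*, the activator of the anaphase-promoting complex, was at 14.3, 2.81 and 4.17 against 1.23, 0.918 and 1.71 (1.57, adjusted p = 0.015). In all 3 genes the diets did not overlap, as in 18 of the 36 and 10.1% of all genes, and for *Prc1* and *Cdc20* the first value of the 60% HFD, from the library with most germ cell RNA, stood far above the others. The count was 2 and 3 without replicates 2 and 3 of the ND mice and 7 without replicate 1 of the 60% HFD mice. Germ cell markers were at 48.0 to 1819 in the CCL19-KI mice on the 60% HFD and at 6.27 to 20.5 in those on the ND, and markers of epididymis epithelium at 292 to 9573 and 1.37 to 439. Hepatocyte markers were at 801 to 1389 on the 60% HFD and at 1022, 19787 and 24232 on the ND, with both high values in replicates 2 and 3. With the hepatocyte score as a covariate 2 of the 36 genes were higher, against 0.555% of all genes. Without the 3 libraries with germ cell RNA, *Mcm5* was the only gene that passed (1.59, adjusted p = 0.0243), against 1.77% of all genes, and without all 4 libraries *Mcm5* (1.59, adjusted p = 0.0115) and *Mcm3* (0.95, adjusted p = 0.0295) were higher, against 2.95% of all genes. With those 4 left out, 1 unligatured CCL19-KI mouse of the 60% HFD and 1 unligatured WT mouse of the ND were left, and each was taken to vary like the other groups. In unligatured WT mice the same diets gave 0 calls in limma, edgeR and DESeq2 (3% of all genes higher and 0.409% lower in limma, and 1 of 36 higher and 2 lower at an unadjusted p below 0.05), and 31 changes were negative with a median of -0.36.

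On the 60% HFD without ligature, 5 genes were higher in CCL19-KI than in WT mice, against 8.73% of all genes: *Cdc20* (1.56 ± 0.38, adjusted p = 0.0109), *Ccnb2*, *Prc1*, *Kif23*, a motor of cytokinesis, and *Mcm2*. *Cdc20* was at 14.3, 2.81 and 4.17 normalized CPM in CCL19-KI and 2.15, 1.33 and 0.614 in WT mice. *Ccnb2*, cyclin B2, was at 15.7, 3.82 and 2.55 and at 2.35, 0.667 and 0.922 (1.58 ± 0.47, adjusted p = 0.0239). In both, the groups did not overlap, as in 7 of the 36 genes and 14.4% of all genes, and replicate 1 was several times the others. The count was 1 without that library or without replicate 2 of the WT mice, 0 without replicate 3 of the WT mice, 9 and 8 without replicates 2 and 3 of the CCL19-KI mice, and 7 higher and 1 lower without replicate 1 of the unligatured WT mice on the 40% HFD. It was 0 without the 3 libraries with germ cell RNA or without all 4 named above, and 9 without the 2 that go against their label, against 10% of all genes. Hepatocyte markers were at 801 to 1389 in CCL19-KI and 8787 to 35774 in WT mice, and markers of epididymis epithelium at 292 to 9573 and 0.268 to 0.768, each without overlap. With the hepatocyte score as a covariate limma called 0 of the 36 genes at the adjusted p, against 0.213% of all genes higher. By the study's thresholds 9 were higher and 1 lower in that fit. The share of all genes at those thresholds is not given here, so these 2 counts were not set against the other genes. On the 40% HFD, limma, edgeR and DESeq2 called 0 genes, with 2 lower in limma at an unadjusted p below 0.05 and 0.0056% of all genes called.

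**Figure D5:**
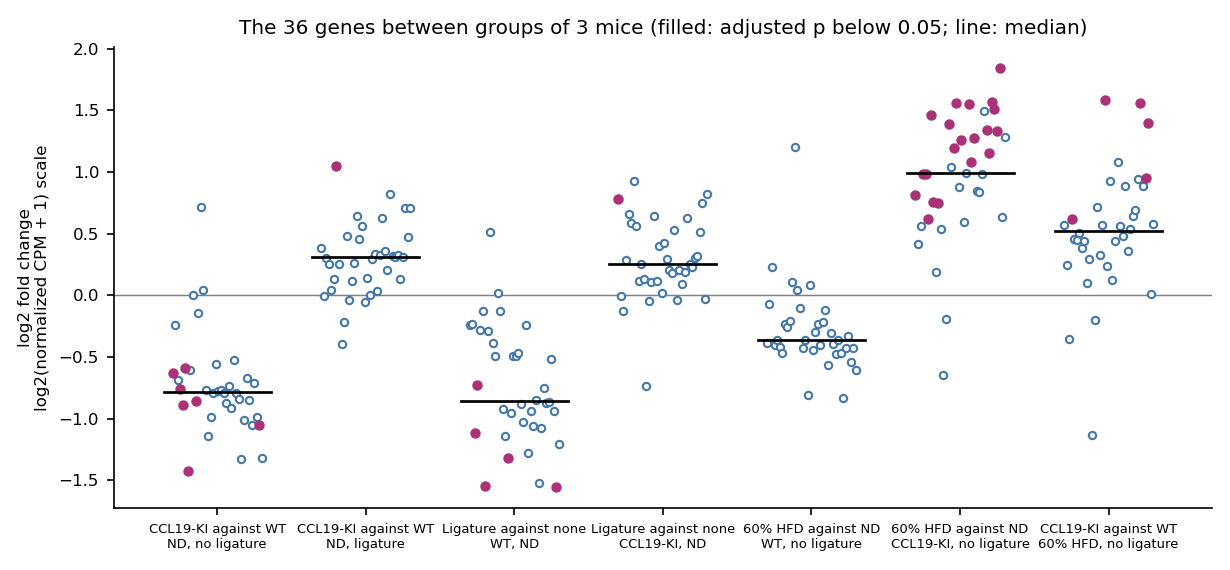
Change (log2) of each of the 36 genes in 7 comparisons between groups of 3 mice, 1 point per gene; filled points have an adjusted p below 0.05 in limma and the line marks the median. Unligatured CCL19-KI mice have a median of -0.78 against WT on the ND and of 0.52 on the 60% HFD.

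The ligature was accompanied by lower levels in WT mice on the ND, where 5 genes were lower, against 4.05% of all genes: *Mcm5*, *Ube2c*, *E2f1*, *Ccnb1* and *Mcm2*. The unligatured mice here are those of the comparison of genotypes on the ND. *Mcm5* was at 13.7, 7.96 and 7.35 normalized CPM without and 1.72, 2.18 and 4.10 with the ligature (-1.55 ± 0.26, adjusted p = 0.00232), and it passed in all 18 settings and whichever library was left out. *Ube2c* was at 7.61, 2.67 and 3.70 and at 0.483, 0.760 and 1.24 (-1.56 ± 0.31, adjusted p = 0.00547). *E2f1* was at 12.2, 4.56 and 9.00 and at 2.62, 2.84 and 4.18 (-1.12 ± 0.31, adjusted p = 0.0312). Every unligatured mouse lay above every ligatured mouse in these 3 genes, as it did in 16 of the 36, and in 15.3% of all genes. Of the 36 changes, 34 were negative, with a median of -0.86 against -0.05 over all genes tested. Leaving out 1 library gave 1 to 10 genes, with 1 without replicate 1 of the ligatured mice, 2 without their replicate 2 or without replicate 1 or 3 of the unligatured mice, 8 (1 of them higher) without replicate 3 of the ligatured mice, 9 without the library with the most germ cell RNA and 10 without the library labelled WT that goes against its label. Without both such libraries 15 were lower, against 6.83%, and without all 4 libraries 16, against 6.31%, with replicate 1 as the only unligatured mouse left. The summed hepatocyte markers were at 129 to 1540 in the unligatured and 4206 to 12906 in the ligatured mice, those of mesothelium at 327 to 502 and 1083 to 1230, and those of adipose progenitors at 2183 to 2635 and 3617 to 4856, each without overlap. With the hepatocyte score as a covariate 2 of the 36 genes were lower, against 3% of all genes, and the part of the other markers was not tested.

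In CCL19-KI mice on the ND, *Cdc6* was higher with the ligature, at 1.59, 1.72 and 3.12 normalized CPM against 0.802, 0.810 and 0.767 (0.78 ± 0.20, adjusted p = 0.0485). It was the only one of the 36 genes to pass (1.05% of all genes higher), and it passed in 9 of the 36 fits without 1 library. On the 60% HFD, limma called 0 of 36 with the ligature in CCL19-KI mice (4.14% of all genes lower), with 7 lower and 1 higher at an unadjusted p below 0.05. By the study's thresholds 7 were lower and 1 higher, against 1991 lower and 1330 higher of all 17852 genes tested. For this comparison edgeR called 2 and DESeq2 7 lower. The shares of all genes in those 2 tools are not given here, so their counts were not set against the other genes. Without replicate 2 or 3 of the unligatured mice of this diet, limma called 4 lower, and it called 1 lower without replicate 1 of the unligatured CCL19-KI mice on the ND, without replicate 1 of the unligatured WT mice on the 40% HFD or without the library labelled WT on the ND that goes against its label. On the 40% HFD limma called 0 there and 0 of all genes. The ligatured CCL19-KI mice lay below all unligatured mice for 10 of the 36 genes, against 3.75% of all genes.

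The ligatured arm held none of the 4 libraries named above, but it was not free of germ cell RNA. In its WT mice the germ cell markers summed to 107 in replicate 3 on the ND, 115 in replicate 2 on the 40% HFD and 81.3 in replicate 2 on the 60% HFD. Of the 22 markers, 16, 16 and 15 were at 1 normalized CPM or more in these libraries. In the ligatured arm *E2f1* separated the ND from the HFDs, but not the HFDs from each other. In ligatured WT mice it was at 2.62, 2.84 and 4.18 normalized CPM on the ND, 8.64, 6.64 and 6.34 on the 40% HFD and 9.20, 12.5 and 8.08 on the 60% HFD. In ligatured CCL19-KI mice it was at 3.44, 5.22 and 3.92, at 11.4, 8.56 and 7.31, and at 11.7, 11.0 and 13.7. In both genotypes each mouse on an HFD lay above each mouse on the ND. For the 60% HFD this held for 12 of the 36 genes in WT and 8 in CCL19-KI mice, against 19.2% of all genes in each genotype. For the 40% HFD it held for 6 and 1 of the 36 genes, against 8.86% and 14.7% of all genes. Between the 60% HFD and the ND, the change was 1.37 ± 0.31 in WT (adjusted p = 0.017) and 1.35 ± 0.31 in CCL19-KI mice (adjusted p = 0.00699), and *E2f1* was the only one of the 36 genes that passed in either, against 0.98% and 6.62% of all genes higher. In WT mice *E2f1* passed in 32 of the 36 fits without 1 library, with adjusted p up to 0.144: without replicate 1 or 2 of the ligatured mice on either diet 0 genes passed, and without replicate 3 of those on the ND 2 were higher and 1 lower. Leaving out replicate 1, 2 or 3 of the unligatured mice labelled CCL19-KI on the 60% HFD, replicate 1 of those on the ND or replicate 1 of the unligatured WT mice on the 40% HFD gave 1 higher and 1 lower. In CCL19-KI mice *E2f1* passed in all 36, and the count was 1 to 5, with 2 without replicate 2 of the unligatured CCL19-KI mice on the 60% HFD, replicate 1 of the unligatured or ligatured CCL19-KI mice on the ND or replicate 1 of the unligatured WT mice on the 40% HFD, 3 without replicate 1 or 2 of the unligatured WT mice on the ND and 5 without replicate 3 of the unligatured mice labelled CCL19-KI on the 60% HFD. Between the 40% HFD and the ND, the change was 0.97 ± 0.31 in WT (adjusted p = 0.187) and 0.95 ± 0.31 in CCL19-KI mice (adjusted p = 0.0669), which did not pass, against 0.101% and 1.87% of all genes higher. Without the 2 unligatured libraries that go against their label, which enter the fit through the shared variance, *Cdk1*, *Ube2c* and *Cenpe* were also higher in CCL19-KI mice, against 9.56% of all genes, and *Cdc6* was lower. In unligatured mice the change of *E2f1* was 0.23 ± 0.31 in WT (adjusted p = 0.745) and 0.56 ± 0.31 in CCL19-KI mice (adjusted p = 0.218).

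Differences of these effects between groups were tested as interactions. *Mcm3* was the only one of the 36 genes that passed, with a difference between genotypes in the effect of the 60% HFD of 0.80 ± 0.18 (adjusted p = 0.0445), against 0.308% of all genes. For 33 genes this difference was positive, with a median of 0.67 against 0.07 over all genes tested. *Mcm3* in the unligatured WT mice was at 15.1, 8.52 and 12.4 normalized CPM on the ND and 9.92, 8.09 and 8.60 on the 60% HFD, and in unligatured CCL19-KI mice at 6.65, 4.70 and 6.31 and at 12.7, 12.2 and 12.7. Ligatured WT mice were at 8.62, 8.01 and 12.1 on the ND and 9.52, 8.51 and 9.15 on the 60% HFD, and ligatured CCL19-KI mice at 12.7, 9.15 and 7.97 and at 9.91, 14.2 and 10.3. The diets were apart only in the unligatured CCL19-KI mice. The call held in 13 of the 36 fits without 1 library and was lost without the 3 libraries with germ cell RNA. It held without the 2 libraries that go against their label (0.90, limma, adjusted p = 0.0258). Without all 4 libraries the difference was 0.95. That fit left replicate 1 as the only unligatured WT mouse on the ND. This mouse held the highest *Mcm3* level of all libraries (15.1 normalized CPM), so that no call is drawn from that fit.

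A wider list of 81 other cell cycle genes, of which 78 were tested, was tested in the same fit. On the 60% HFD against the ND, 13 were higher and 0 lower, against 10.2% and 8.4% of all genes, with a median change of 0.24 and 61 positive. The highest-ranked were *Fen1*, the nuclease that trims Okazaki fragments (0.56 ± 0.10, adjusted p = 8.34e-04), *Spc25*, a kinetochore protein (1.3, adjusted p = 0.00121), and *Gtse1*, a regulator of p53 in G2 (0.89, adjusted p = 0.00137). *Ccne1*, cyclin E1 (0.72), and *Cdkn1a*, which encodes the cell cycle inhibitor p21 (1.14), were also higher. On the 40% HFD against the ND, *Mcm10*, a replication initiator, was the only one higher (1.81, adjusted p = 0.0245), against 5.36% of all genes, and *E2f8*, an E2F repressor (1.00, adjusted p = 0.0508), came next. Between the 60% and the 40% HFD, *Gtse1* (0.78, adjusted p = 0.0247) and *Fen1* (0.41, adjusted p = 0.0478) were higher on the 60% HFD, against 0.745% of all genes called in either direction, and *Stmn1*, a destabilizer of microtubules, came next (0.59, adjusted p = 0.0857). With the ligature limma called 0 (30 lower and 1 higher at an unadjusted p below 0.05), and 66 of the 78 changes were negative with a median of -0.19, led by *E2f7*, another E2F repressor (-0.35, adjusted p = 0.0696), *Gtse1* (-0.54) and *Stmn1* (-0.50). Between the genotypes limma called 0 (3 lower and 0 higher at an unadjusted p below 0.05: *Rpa2*, -0.14, *Cks1b*, -0.20, and *Cdkn2c*, -0.38).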

How the data were processed

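RNA of eWAT was depleted of ribosomal RNA and sequenced on a DNBSEQ-G400 (paired-end). According to the authors and the submitters' processing notes, reads were trimmed with Trimmomatic 0.38, aligned with Bowtie2 within RSEM 1.3.0 and normalized with edgeR. The study names mm10 transcripts and the processing notes GRCm39, so the build of the table is open, and it was read by Ensembl ID alone. The deposited values are thus a signal in normalized CPM. Within each library all values were whole multiples of the smallest (tolerance 0.01), and reads per gene were recovered for edgeR and DESeq2. Their depth is given in the report.

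Groups follow the labels, 3 mice each. Whether the 3 were of separate litters or cages is not stated. The p-values rest on the spread between mice within groups, pooled over all 12 groups, and not on the compared mice alone. Genes that reached 1 normalized CPM in 3 or more libraries (17852, all 36 listed genes among them) were tested on log2(value + 1) with limma 3.58.1 (eBayes with trend, 24 residual degrees of freedom) in R 4.3.3, in 5 averaged, 3 ligatured, 17 within-group and 4 interaction contrasts. P-values were adjusted by Benjamini-Hochberg over all genes of a contrast. On simulated data for the 60% HFD against the ND, 196 of 200 changed genes and 10 of the others were called. Alternatives were another pseudocount, filter, scaling, robust eBayes, separate fits of the arms, covariates, left-out libraries, edgeR 4.0.16 and DESeq2 1.42.0. Named genes were *Mki67*, *Top2a*, *Cdk1*, *Ccna2*, *Ccnb1*, *Birc5*, *Rrm2*, *Pcna*, *Mcm5*, *E2f1*, the 3 with the smallest p in each averaged comparison, those called against the direction of most and those called in ligatured mice; others were named after their values were seen, and 1 gene of the wider list is not reported here. The genes and lists were chosen with earlier results of these data known. Gene positions are from GENCODE M21 and promoters from RefSeq, both GRCm38. For 4 genes (*E2f1*, *Mcm7*, *Cdc6* and *Pcna*) the start at which the promoter window ends lay more than 100 bases inside the annotated gene, and none of these windows was printed.

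Same-numbered mice of different groups deviated from their group means with a median r of -0.015 (-0.66 to 0.71, 198 pairs), so numbers do not pair the mice.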

Additional observations from a re-analysis of the deposited data

Results flagged for a closer look

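*Mcm3*, a subunit of the replicative helicase, was singled out because the effect of the 60% HFD against the ND differed between genotypes by 0.80 ± 0.18 on the log2 scale (limma, adjusted p = 0.0445), with the unligatured CCL19-KI mice higher on the 60% HFD and the unligatured WT mice not. The difference passed in 11 of the 18 settings that used all mice or left out named libraries, and in 13 of the 36 fits without 1 library. The groups that carry it hold the libraries with germ cell RNA and those that go against their genotype label, and the part of these in the result was not tested beyond those settings.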

How the results depend on the processing

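Over 77 results for single genes, 3572 of 4153 values under other settings had the same direction and the same side of the threshold, 542 fell short of it, 20 passed newly and 19 changed sign. Of the alternatives, 7 were chosen after seeing the data: the settings without 6 libraries with germ cell genes, without the 2 libraries against their label and without these and the germ cell libraries (4), the hepatocyte covariate alone or with the germ cell covariate, and edgeR without the germ cell libraries or the 2 against their label. The causes of the shifts were not tested.

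For the 60% HFD against the ND (9 genes), the count was 3 with a filter on a mean of 5. That filter left *Cdk1*, *Ccnb1*, *Aurka*, *Cenpe*, *Tpx2* and *Ube2c* untested, so their calls were removed by the filter and not lost in the test. The count was 4 with the hepatocyte covariate, 3 with both covariates and 4 to 14 leaving out 1 library. For the 40% HFD against the ND (1), it was 0 with a pseudocount of 5, without 2 or 4 libraries and in edgeR with all libraries or without 2, 2 without 6 libraries or with both covariates, and 0 to 1 leaving out 1 library. *E2f1* lost that call without any of 8 libraries: replicate 2 of the unligatured WT, replicates 1 and 2 of the ligatured WT and replicate 2 of the unligatured CCL19-KI mice on the ND, and replicate 3 of the unligatured WT, replicate 1 of the ligatured WT, replicate 3 of the unligatured CCL19-KI and replicate 1 of the ligatured CCL19-KI mice on the 40% HFD. For the ligature (0), it was 6 in DESeq2 and 1 in edgeR without 2 libraries. For the genotypes in ligatured ND mice (1), it was 0 with a pseudocount of 5, the filter on a mean of 5, the replicate block and each covariate setting, and 0 to 1 leaving out 1 library.

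Counting genes called in any within-group contrast (22, against 43.3% of all genes), it was 8 with the filter on a mean of 5, 10 with the germ cell covariate, 12 without 3 or 6 germ cell libraries, 14 in edgeR without 3, 5 with the hepatocyte covariate, 4 with both covariates, and 10 to 30 leaving out 1 library, with 10 and 11 without replicates 3 and 2 of the unligatured CCL19-KI mice on the ND and 30 without the library labelled WT on the ND that goes against its label. Interactions (1) gave 0 with no filter, with each covariate setting, without 3 or 6 germ cell libraries and in edgeR without 3, 4 without 2 libraries and in edgeR without 2, 3 without 4, 2 in edgeR, 5 in DESeq2, and 0 to 4 leaving out 1 library. With the replicate block the diet count was 10, the within-group count 27 and the interaction count 1. The filter on the mean level left genes of low level untested, so its within-group count cannot be set against the 22.

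Signs changed for effects near 0. That of the ligature on *E2f1* (-0.01) was 0.0013 with a pseudocount of 5, 0.026 with the hepatocyte covariate, 0.014 with both covariates and -0.073 to 0.065 leaving out 1 library. That on *Pcna* (0.04) was -0.018 without 3 germ cell libraries, -0.054 without 6, -0.020 without 2, -0.10 without 4 and -0.0017 to 0.095 leaving out 1 library. *Tk1* on the 40% HFD (0.50) was at -0.10 with the hepatocyte covariate and with both. Genes near 1 normalized CPM, such as *Ttk*, limit what the depth can show.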

Other observations

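Histone genes, whose products package newly copied DNA, were listed as well. Their sequences are near-identical, so counts can be shared between copies, and each value is uncertain. Of 60 tested, 5 were higher and 2 lower on the 60% HFD than on the ND, against 10.2% and 8.4% of all genes, with a median change of 0.19: *Hist2h3c2* (1.02), *Hist1h3b* (0.78), *Hist1h2ad* (0.65), *Hist1h2bc* (0.61) and *Hist2h2aa1* (0.41) were higher, and *Hist1h1c* (-0.38) and *Hist1h4d* (-0.39) lower. Between CCL19-KI and WT mice, *Hist1h4m* was higher (3.69, adjusted p = 1.22e-06) and *Hist1h4n* lower (-1.01, adjusted p = 0.00128) in limma, and 57 of the 60 changes were negative with a median of -0.20.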
